A study of Mus musculus with 8 samples.

Results

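In mouse embryonic stem cells, 2704 CAGE tag clusters kept the same bounds in wild-type cells and in both Pwwp2a/b double knockout (DKO) clones, but had their dominant transcription start site (TSS) at another base in the knockouts. A cluster was a member if its chromosome, start, end and strand were identical in the 3 tracks and if its dominant TSS was the same base in clones A1 and C7 and a different base in E14. Such clusters made up 8.46% (95% Wilson interval 8.16% to 8.77%) of the 31968 clusters with identical bounds. The members were chosen by the positions of the dominant TSSs in these tracks, so the moves are described here without a test. Intervals of shares cover counting error only, and clusters of 1 line are not replicates of each other.

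CAGE-seq was carried out on nuclear RNA from E14, a wild-type mouse embryonic stem cell line, and from A1 and C7, 2 clones derived from E14 that lack both PWWP2A and PWWP2B. All cells were grown on gelatin in medium with LIF. There were 3 E14, 2 A1 and 3 C7 libraries, and the authors merged those of a line before calling clusters. The tracks therefore give 1 position per line and no replicate error, each knockout clone is a single clone, and no depth or expression value stands in the tracks.

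CAGE reads mark the first base of capped RNA, and nearby start sites on 1 strand are joined into a tag cluster whose most used base is the dominant TSS. Mammalian promoters often spread initiation over many bases, and RNA polymerase II prefers to begin at a purine that follows a pyrimidine, the initiator step, of which CA is the classical form. PWWP2A and PWWP2B are chromatin proteins that associate with H3K36me3 in transcribed genes and form a histone deacetylase complex that shares MTA, HDAC and RBBP subunits with NuRD but lacks its MBD and CHD subunits. The 8 embryonic stem cell markers examined, among them Pou5f1 and Nanog, each had a promoter cluster in each line, whereas the 2 mesoderm and 2 neural markers had none. Of the 4 endoderm markers 1 had a promoter cluster in each line, and so did all 3 fibroblast markers (Col1a1, Col1a2 and Thy1). The part of other cell types in the moves was not tested.

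The bases on either side of the moves are shown first for promoter members, because they carry the description of the first base given further on. Each sequence has 30 bases on the transcribed strand, 5′ to 3′, read from RefSeq promoters or GENCODE M21 exons on GRCm38, the assembly of mm10. A capital marks a dominant TSS. Where 1 sequence holds 2 capitals, the direction of the move is given with its name.
Klhdc3, TSS of E14: gcccacccgctccccAtctttcggccctgg
Klhdc3, TSS of both clones: acgaagtctggcagtGtttatctcgttggg
Nfyb, TSS of E14: gggagggtgtcacgtAgagggaagcggccc
Nfyb, TSS of both clones: gactggttccttcgcAgccattttctgtcc
Glce, TSS of E14: cttaccgtggctgggAtctcgcgggaagag
Glce, TSS of both clones: gggcgggctctcctcAcacgagcgcttcct
Eif2s2, TSS of E14: gtgagaagtatcggtGggagctacgctgac
Eif2s2, TSS of both clones: cagccatgtccggggAcgaggtgagaggct
Rbbp4, first capital E14, second the clones: ctcagacccgcGctttctcAttggtcggtg
Gatad2b, first capital E14, second the clones: cgcctcCtttttcgacgccttcAcagccgc
Nsd2, first capital E14, second the clones: ctggccGcgctgcgcccgccgctGccgccg
Rps23, first capital E14, second the clones: tggggGtgcctctcatgcaaagggAattgt
Rpl35a, first capital E14, second the clones: tacgattttGcctttccttGttcctaaata

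Starts within coding exons are shown separately, because few of them have the initiator step in any line.
Smc2, TSS of E14: aagtttcaagaagtCaaagatgttcaagat
Smc2, TSS of both clones: aagatgagctgaggAccaaggagaatgaac
Pou5f1, first capital the clones, second E14: ctgctggagAagtgggtggAggaagccgac
Rbm25, first capital the clones, second E14: agaaagaagaaaaaggAaaagaaggAggac
Rplp0, first capital E14, second the clones: ccaggcTttgggcatcaccacgAaaatctc
Hnrnpu, TSS of E14: gggcttccaggagggGgaagacgagctcgg
Hnrnpu, TSS of both clones: agaacggtcacggggAgcagcagtcccaac

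A pair of control sets measures how often 1 clone alone departed from the other lines. In 4029 clusters (12.6%) the dominant TSS of A1 differed while E14 and C7 shared theirs, and in 3181 (9.95%) C7 differed alone. A further 21211 clusters (66.4%) had the same dominant TSS in all 3 lines. Moves shared by both clones were thus fewer than those of either clone alone, over the genome and on 20 of 20 chromosomes (1 to 19 and X) against A1 alone and 17 of 20 against C7 alone. Among these 20 chromosomes the share of members ran from 6.98% on chromosome X to 11.0% on chromosome 6. Counted pair by pair, the dominant TSS lay at another base in 23.7% of clusters for A1 against E14, in 21.0% for C7 against E14 and in 25.2% for A1 against C7. The 2 clones differed from each other at more clusters than either differed from E14. These pairs share tracks and are not independent of each other. A departure of E14 alone from A1 and C7 gives the same pattern as a move shared by both clones. The tracks cannot tell such a departure from a shared move.

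The rule required equal bases in A1 and C7. Just outside it, 843 clusters (2.64%) had 3 different dominant TSSs, of which 113 had those of A1 and C7 1 bp apart. Just inside it, 708 members (26.2%) lay 1 bp from the E14 TSS and 234 lay 2 bp from it. Of the members, 472 (17.5%) were 2 bp wide and could move by 1 bp only. How a tie between 2 bases was broken is not given in the sources used here, and the part of ties in these short moves was not tested.

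Most moves were short. The dominant TSS of members moved by a median of 5 bp (quartiles 1 and 13 bp), with a range of 1 to 254 bp. The median was 5 bp in each control set as well. Moves of over 10 bp were found in 844 members (31.2%), against 29.6% of the A1-alone and 30.1% of the C7-alone set. Over 50 bp lay 29 members. The number fell from 49 members at 20 bp to 24 at 21 bp. Both control sets had a like fall, from 86 to 32 clusters in the A1-alone and from 55 to 30 in the C7-alone set. The paper names a length of 20 bp in aggregating TSS clusters, and the part of clustering in this fall was not tested. As the plot of signed moves shows, each set had its peak at 1 bp on either side of the E14 TSS.

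**Figure D1:**
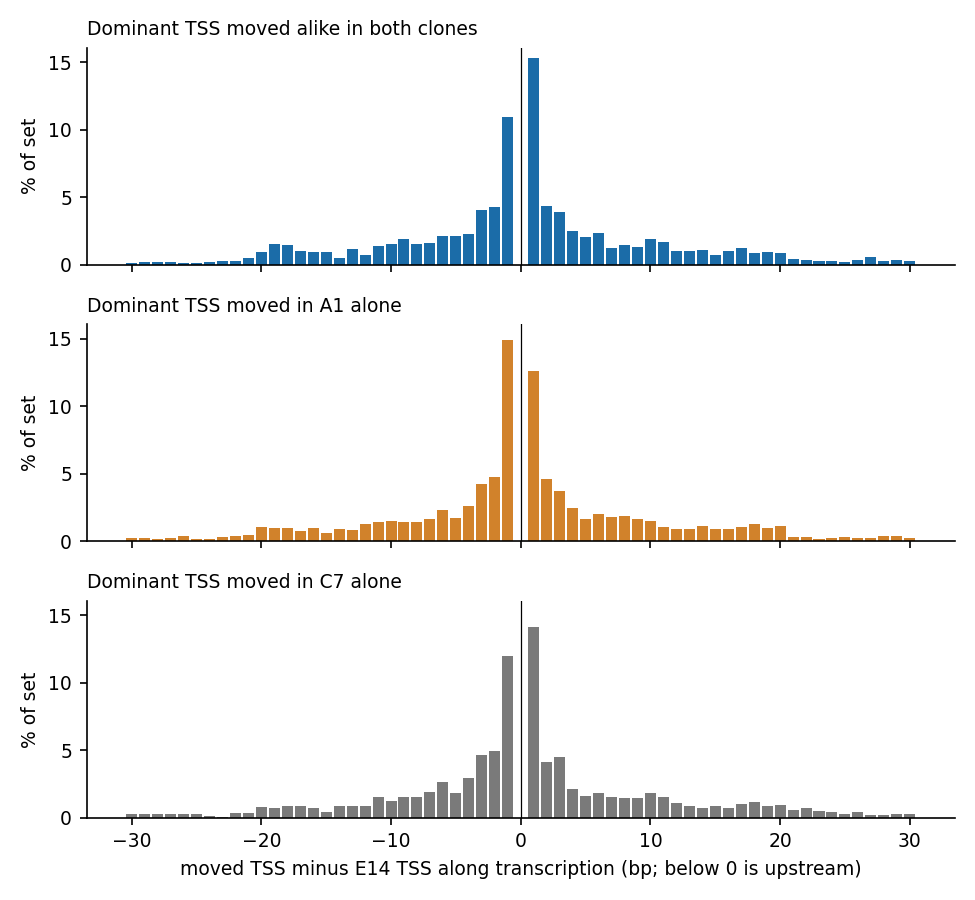
Percent of each set (y axis) by the signed distance from the E14 dominant TSS to the moved one along transcription, in bp (x axis, 30 bp on either side). In each of the 3 panels the bars at 1 bp upstream and 1 bp downstream are the tallest, and among the members the downstream one is the taller.

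By the rule the cluster bounds were the same in each line. The E14 dominant TSS lay inside the interquantile region (the span between quantiles 0.1 and 0.9 of the signal) of A1 in 99.0% and of C7 in 99.1% of members. The bounds of that region were the same as in E14 in 79.7% of members in A1 and 80.3% in C7. In the control sets they were the same in 79.2% of the A1-alone and 80.3% of the C7-alone clusters. The middle of the region moved with the TSS in 303 members and against it in 241 in A1, and in 293 and 232 in C7. In E14 the interquantile region of members had a median width of 11 bp, against 13 bp in clusters whose dominant TSS was the same in all 3 lines.

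Members came from narrow and medium clusters more often than from wide ones. Of clusters 2 bp wide, 472 of 4919 (9.60%) were members, and of those 11 to 20 bp wide, 527 of 4658 (11.3%). Of clusters over 100 bp wide, 83 of 1632 (5.09%) were members. The median cluster width was 12 bp in members, 11 bp in the A1-alone set, 12 bp in the C7-alone set and 19 bp in clusters with the same dominant TSS in all 3 lines. The share of the A1-alone set lay above that of the members in each width class.

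**Figure D2:**
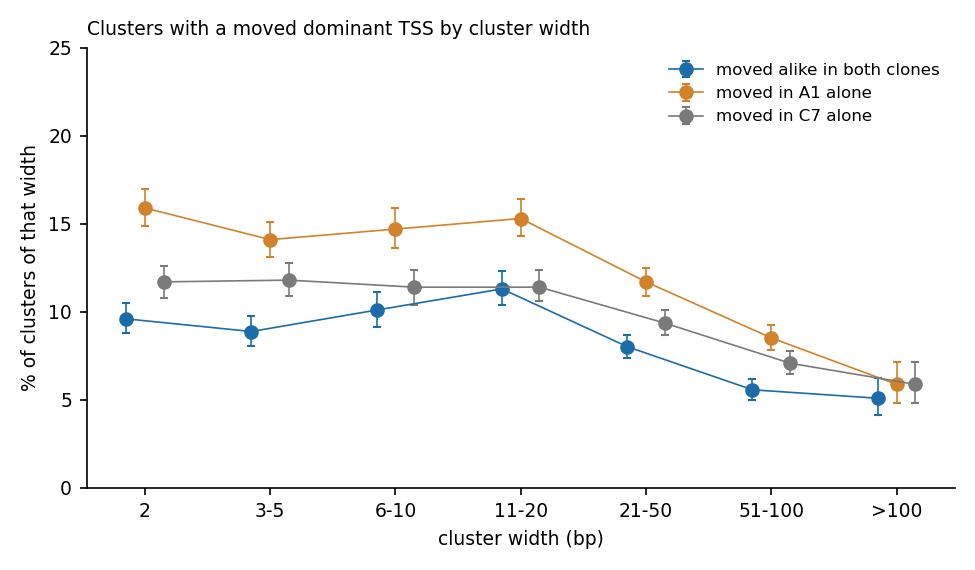
Percent of clusters of a width class (y axis) whose dominant TSS moved alike in both clones, in A1 alone or in C7 alone, by cluster width in bp (x axis); bars are 95% Wilson intervals. The share of members was 11.3% at 11 to 20 bp and 5.09% over 100 bp, and all 3 sets were lowest in the widest class.

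By direction, 1263 members (46.7%, 44.8% to 48.6%) moved upstream and the other 1441 downstream. Over all clusters, the dominant TSS lay upstream in 11.7% and downstream in 12.0% for A1 against E14, and in 10.1% and 11.0% for C7 against E14. The upstream share was 51.5% in the A1-alone set and 48.1% in the C7-alone set. At the extremes of distance the direction was less even. Of the members that moved by 1 bp, 41.7% (38.1% to 45.3%) moved upstream, and from 2 to 20 bp the classes of distance held 49.9% to 51.1%. Of the 247 members that moved by 21 to 50 bp, 93 (37.7%, 31.8% to 43.8%) moved upstream, and of the 29 that moved farther, 7 (24.1%). The C7-alone set had a like profile, with 37.5% and 26.7% upstream in the last 2 classes. The A1-alone set did not, with 53.0% and 53.8%.

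Most moves of over 20 bp lay at annotated promoters. Of the 226 promoter members that moved by over 20 bp, 149 (65.9%, 59.5% to 71.8%) moved downstream, against 66.0% of 288 promoter clusters in the C7-alone set and 48.0% of 319 in the A1-alone set. Up to 20 bp, 50.4% of 1251 promoter members moved downstream. Intronic members also moved downstream more often than upstream, with 117 of 296 (39.5%, 34.1% to 45.2%) upstream, and 159 of these 296 moved by 1 bp. The classes of distance were chosen after the directions had been seen, and the differences between the sets were not tested.

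**Figure D3:**
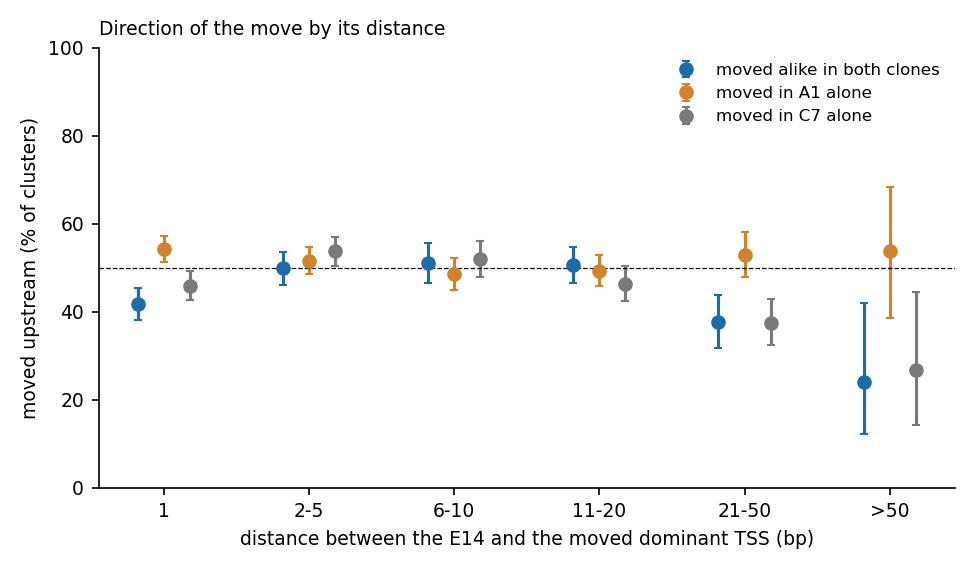
Percent of clusters whose dominant TSS moved upstream (y axis) by the distance of the move in bp (x axis), for the members and both control sets, with 95% Wilson intervals; the dashed line is at equal numbers. Past 20 bp, members lay at 37.7% and 24.1% and the C7-alone set at 37.5% and 26.7%, whereas the A1-alone set lay at 53.0% and 53.8%.

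Of the members, 1477 (54.6%) had their E14 dominant TSS at an annotated promoter, which means at most 500 bp from the start of a transcript on its own strand. Another 372 (13.8%) were exonic, 296 (10.9%) intronic and 559 (20.7%) intergenic. The promoter share was 53.8% in the A1-alone and 53.2% in the C7-alone set, but 63.8% in clusters with the same dominant TSS in all 3 lines. Read the other way, 7.61% of promoter clusters were members, 8.92% of exonic, 10.0% of intronic and 10.3% of intergenic clusters. For A1 alone the shares were 11.2% of promoter, 14.1% of exonic, 17.1% of intronic and 14.1% of intergenic clusters. For C7 alone the shares were 8.72%, 11.7%, 12.0% and 11.9%. Cluster width also differed by category. In clusters with the same dominant TSS in all 3 lines its median was 37 bp at promoters and 4 bp in exons and in introns. Among clusters 11 to 20 bp wide, members made up 10.5% of promoter, 10.9% of exonic, 12.2% of intronic and 13.1% of intergenic ones. At 2 bp these shares were 9%, 9.23%, 10.9% and 9.28%. The part of width in the shares of the categories was not tested.

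In bp, promoter members moved farther than those in gene bodies. Their median distance was 7 bp, against 1 bp in exonic and in intronic members and 5 bp in intergenic ones. Both control sets also had medians of 7 bp at promoters and 1 bp in exons and in introns. Promoter members lay in wider clusters, with a median of 21 bp, against 5 bp in exonic and 3 bp in intronic members. In clusters at least 10 bp wide, the median move was 35.8% of the width at promoters, 75% in exons and 91.8% in introns. Exonic members moved by 1 bp in 188 of 372 cases (50.5%). In coding sequence lay 231 of the exonic members (62.1%), in a 3′ UTR 96, in a noncoding exon 42 and in a 5′ UTR outside the promoter window 3.

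Promoter TSSs moved toward annotated starts about as often as away from them. In the clones the dominant TSS was nearer to an annotated transcript start in 691 of 1477 promoter members (46.8%, 44.3% to 49.3%), farther in 746 and equally far in 40. It fell exactly on an annotated start in 119 promoter members in E14 and in 121 in the clones. Downstream of the nearest annotated start lay 50.3% of the E14 and 49.5% of the clone TSSs.

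Few moves crossed the start of the coding sequence. Of the 975 promoter members whose nearest transcript start belongs to a transcript with an annotated coding sequence, 57 had their dominant TSS at or past the first coding base in E14, and 57 in the clones. In 5 members the TSS lay before that base in E14 and past it in the clones (Akap12, Dact2, Eif2s2, Fam173b and Lrp6). In 5 others it went the other way (Adi1, Clpp, Dnajc8, Luc7l3 and Rbm39). At Eif2s2, which encodes the beta subunit of the initiation factor eIF2, the E14 TSS lay 78 bp before and the clone TSS 10 bp past the first coding base, so that the start codon stands upstream of the capital in the clone sequence above. At Luc7l3, a splicing factor gene, the E14 TSS lay 45 bp past it and that of the clones 8 bp before it. At Lrp6, a Wnt coreceptor gene, the same distances were 4 bp before and 7 bp past.

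The first base of the RNA differed between E14 and the clones among the members. Bases could be read at both TSSs of 1252 of the 1477 promoter members (84.8%) and 369 of the 372 exonic members (99.2%). Over all members only 60.3% were covered, below the minimum of 80%, so intronic and intergenic members are not described by sequence. At promoters the E14 dominant TSS was a G in 586 members (46.8%, 44.1% to 49.6%) and the clone TSS in 462 (36.9%, 34.3% to 39.6%). An A stood there in 465 (37.1%) and 579 (46.2%, 43.5% to 49.0%). In 280 promoter members the TSS went from a G in E14 to an A in the clones, and in 162 from an A to a G.

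Both control sets showed a change of the first base, in opposite directions. In the C7-alone set G fell from 47.4% in E14 to 37.4% in C7 and A rose from 36.6% to 47.1%. In the A1-alone set G rose from 39.4% in E14 to 43.2% in A1 and A fell from 46.3% to 37.7%. Promoter clusters with the same TSS in all lines had G in 37.4% and A in 50.6%. The base counts were tabulated after those of the initiator step had been seen, and no test was made on them.

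G was less frequent and A more frequent in the clones than in E14 in each class of distance, although the intervals of E14 and the clones overlapped for both bases up to 4 bp. Among promoter members that moved by 1 bp, A was the first base in 31.3% in E14 and 35.8% in the clones. From 5 to 20 bp, these shares were 36.8% and 47.6% of 555 members, and past 20 bp 39.1% (32.6% to 46.0%) and 57.9% (51.0% to 64.5%) of 202 members. Among those 202, G was the first base in 52.0% in E14 and 36.1% in the clones. Rbbp4, Rps23 and Eif2s2 are examples of a G in E14 and an A in the clones. Klhdc3 is an example of the reverse.

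The share of the initiator step differed less. A pyrimidine-purine step stood at 66.8% (64.1% to 69.3%) of promoter members in E14 and at 66.1% (63.5% to 68.7%) in the clones, and at 76.9% of promoter clusters with the same TSS in all 3 lines. In the A1-alone set it fell from 70.0% to 62.8%, and in the C7-alone set it was 69.2% and 68.2%. The CA step was found in 23.3% of promoter members in E14 and in 27.7% in the clones. Moves of 1 bp cannot have the step at both bases, and there it stood at 23.4% in E14 and 22.9% in the clones. These moves lower the shares over all promoter members given above. From 2 to 4 bp the step stood at 77.9% in E14 and 69.0% in the clones, and from 5 to 20 bp at 73.0% and 74.2%. Past 20 bp it stood at 76.7% (70.4% to 82.0%) in E14 and 82.7% (76.9% to 87.3%) in the clones.

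Exonic members rarely had the initiator step, with 44 of 369 (11.9%) in E14 and 44 in the clones. Their first base nonetheless differed. A G was found in 33.9% (29.2% to 38.8%) in E14 and in 22.0% (18.0% to 26.5%) in the clones, and an A in 100 and 133 members. The step GG was found in 86 exonic members (23.3%, 19.3% to 27.9%) in E14 and in 38 (10.3%, 7.60% to 13.8%) in the clones. In the A1-alone set GG went from 14.3% to 20.9%, in the C7-alone set from 22.5% to 18.3%, and it stood at 17.6% of exonic clusters with the same TSS in all lines. The GG step was looked at after the base counts had been seen.

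**Figure D4:**
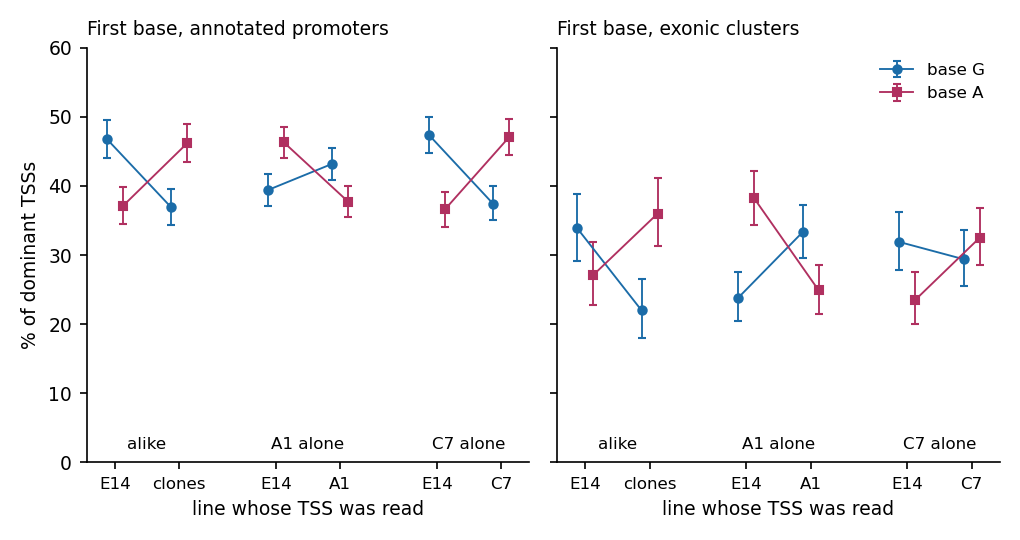
Percent of dominant TSSs (y axis) whose first base was G or A in E14 and in the line that moved (x axis), for the members and both control sets, at annotated promoters (left) and in exons (right), with 95% Wilson intervals. At promoters G and A changed places between E14 (46.8% and 37.1%) and the clones (36.9% and 46.2%) among members and in the C7-alone set, and the other way in the A1-alone set.

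The longest moves at promoters of protein-coding genes mostly went downstream, 8 of the 10 longest. Of these 10, 9 took place in the widest promoter cluster of their gene. Some of these genes, Erp29, Eif2b4 and Glce among them, had only 1 promoter cluster, which is then the widest by definition. A long move also needs a wide cluster, so a choice by distance favors wide clusters. Klhdc3, a Kelch repeat gene on the minus strand of chromosome 17, had the longest move. Its dominant TSS lay at 46680914 in E14, on an annotated start, and 113 bp downstream in A1 and C7, within a cluster of 160 bp. Erp29, which encodes a chaperone of the endoplasmic reticulum, moved 106 bp downstream from 121452472 on chromosome 5 in a cluster of 185 bp. Mipol1 followed with 95 bp in a cluster of 180 bp on chromosome 12, from an annotated start at 57230434.

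Translation and transcription factor genes were also among the 10. Eif2s2 moved 88 bp downstream from the annotated start at 154892782 on chromosome 2, in a cluster of 108 bp. Eif2b4, which encodes a subunit of the nucleotide exchange factor for eIF2, moved 76 bp downstream from 31193112 on chromosome 5. Nfyb encodes a subunit of the CCAAT-binding factor NF-Y and moved 79 bp downstream from 82764145 on chromosome 10. Wdr6 moved 87 bp downstream, away from its annotated start, and Glce, a heparan sulfate epimerase gene, moved 74 bp downstream onto an annotated start on chromosome 9.

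Only Btbd9 and Actb went upstream among the 10. Btbd9 moved by 71 bp on chromosome 17. Actb, the gene of beta-actin, moved by 67 bp from 142903595 on chromosome 5, at an internal annotated start and not in its widest promoter cluster. Its clone TSS stands within an unbroken run of T. Its other 2 members moved upstream as well, by 2 and 17 bp, and all 3 were among its 11 promoter clusters.

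**Figure D5:**
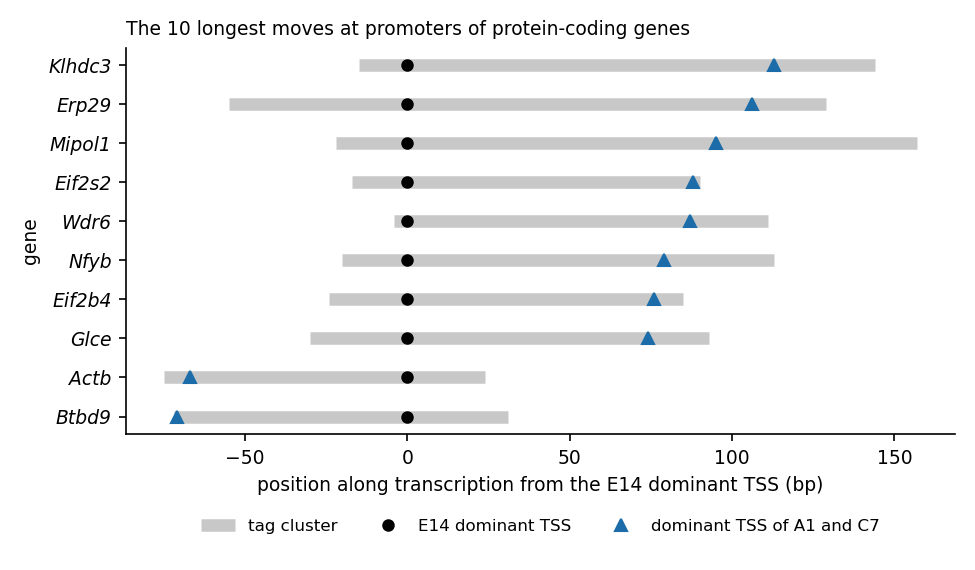
Position along transcription in bp from the E14 dominant TSS (x axis) of the tag cluster (grey bar), the E14 TSS (circle) and the TSS shared by A1 and C7 (triangle) for the 10 longest moves at promoters of protein-coding genes (y axis). In 8 genes the triangle is downstream, by 74 to 113 bp, and in Actb and Btbd9 it is upstream by 67 and 71 bp.

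Among exonic and intronic members the longest move was that of Gm42418, a noncoding gene on chromosome 17 that overlaps a copy of the 45S ribosomal RNA repeat, where the TSS lay 254 bp farther upstream in the clones within a cluster of 411 bp. Reads from near-identical copies of that repeat make its position uncertain. Ahnak2 followed in an intron, with 70 bp downstream. The longest move of an intergenic member was 124 bp. Hnrnpu, in coding sequence, and Reps2, in an intron, both moved by 56 bp downstream. Apoe, the gene of apolipoprotein E, moved 38 bp downstream in coding sequence from 19696766 on chromosome 7.

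The members fell in 1835 genes, of which 1602 had 1 member and 51 had 3 or more. Of the 182 genes with 2 members, 95 had both move the same way. The genes with many members named below were picked for that number, so their counts are high by choice. Over all clusters with identical bounds 8.46% were members, and of exonic clusters 8.92%. Gm47283, a gene model in the pseudoautosomal end of chromosome Y, had 10 members among 78 clusters, of which 9 were intronic, 6 moved upstream and 4 downstream. Near-identical sequence on chromosome X makes these positions uncertain. Rbm25, a splicing regulator gene, had 6 members among 28 clusters. They comprised 2 at promoters, 3 in coding sequence and 1 in the 3′ UTR, with moves of 1 to 9 bp, 4 of them upstream.

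Smc2, which encodes a core subunit of condensin, had 5 members among 13 clusters, all in coding sequence, with moves from 18 bp upstream to 25 bp downstream. Of its other clusters 2 moved in A1 alone and 0 in C7 alone, counts by which the gene was not picked. Bod1l, a gene linked to the protection of replication forks, had 5 members in coding sequence among 27 clusters, of which 4 moved upstream, by 1, 3, 19 and 26 bp. Atrx, a chromatin remodeler gene, also had 5, with moves of 1 bp in 4 of them. Clusters of 1 gene often moved in different directions, as at Chd4, Pcbp2, Sltm, Akap12, Xpo1, Epb41l4a and Hsp90b1, each with 2 members upstream and 2 downstream. Ctbp2 had 1 upstream and 3 downstream, and Slc2a3 had 3 upstream and 1 downstream.

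Of the 51 genes with at least 3 members, 6 had all of them upstream and 7 all downstream, and those named here were picked out after their values had been seen. The 4 members of Gldc, a glycine cleavage gene, moved downstream by 1 to 6 bp, and those of Tubb5, a beta-tubulin gene, downstream by 1 bp in each of 3. At Mybl2, a cell cycle transcription factor gene, the 3 members moved downstream by 2, 2 and 22 bp. At Bptf, a subunit gene of the remodeler NURF, 3 coding-sequence members moved downstream by 1, 1 and 19 bp.

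Where a gene had several promoter clusters, members were more often a side cluster. Of the 973 promoter members at genes with at least 2 promoter clusters, 284 (29.2%) were the widest of them. Over all promoter clusters of such genes the share was 36.7%. Wide clusters held a smaller share of members in general, and the part of width here was not tested. No such share is given here for the control sets. At genes with a single promoter cluster lay 504 members. Pairs of members on opposite strands within 500 bp of each other numbered 47.

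Ribosomal protein genes typically start at a C within a run of pyrimidines, a motif that couples their mRNAs to growth signals. Of 96 promoter clusters at 33 small subunit genes 12 were members (12.5%), and of 155 at 47 large subunit genes 12 (7.74%), against 7.61% of all promoter clusters. In each list 9 moved downstream and 3 upstream, and only 2 in each were the widest promoter cluster of the gene. Among those, Rps16 moved by 1 bp upstream from a C to a C and Rps3 by 1 bp upstream from a C to a C that follows a T. Rpl36a moved by 1 bp downstream from a G to a C, and the bases of Rpl29 could not be read. Side clusters moved farther. Rps23 moved by 19 bp downstream from 90923710 on chromosome 13, Rpl18 by 14 and 10 bp, Rps15a by 13, Rps19 and Fau by 12 and Rpl35a by 10 bp. Of the 20 ribosomal protein members whose bases could be read at both TSSs, 2 had a C after a pyrimidine in E14 and 2 in the clones, and 3 had a pyrimidine-purine step in E14 and 6 in the clones.

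The partners of PWWP2A/B were tallied in 1 list with the subunits of canonical NuRD. Chd4 and Mbd2 do not belong to the PWWP2 complex, and Gatad2b is not among the subunits the paper names for it. Of the listed genes with a promoter member only Rbbp4 encodes a named subunit, so the share is not that of the PWWP2 complex. Of 42 promoter clusters at 17 genes of the list 6 were members (14.3%, beside 7.61% of all promoter clusters), against 7 in A1 alone and 3 in C7 alone. None of the 6 was the widest promoter cluster of its gene. Gatad2b moved by 16 bp downstream from 90293359 on chromosome 3 and Rbbp4, a histone-binding subunit gene, by 8 bp downstream from 129335404 on chromosome 4. Both promoter members of Mbd2, a methyl-CpG-binding subunit gene, moved upstream, by 7 and 5 bp, so that 4 of the 6 moved downstream and 2 upstream. At Chd4, the remodeler of canonical NuRD, promoter members moved downstream by 2 and 3 bp and coding-sequence members upstream by 11 and 6 bp. Pwwp2a itself had 2 clusters with identical bounds, both with the same dominant TSS in all 3 lines, and Pwwp2b had none.

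A list of H3K36 methylation genes, readers and other chromatin genes had 6 members among 59 promoter clusters (10.2%, beside 7.61% of all promoter clusters). Of these, 3 moved upstream and 3 downstream. They lay at Nsd2, Psip1, Kdm5b, Uhrf1 and Ssrp1, so the share is not one of H3K36 enzymes and readers alone. Over all categories the share of this list was 8.41%, beside 8.46% of all clusters with identical bounds. Uhrf1 moved by 11 bp upstream, Kdm5b by 1 bp upstream and Psip1 by 1 bp downstream. Ssrp1, a subunit gene of the histone chaperone FACT, moved by 31 bp downstream in its widest promoter cluster at 85037462 on chromosome 2 and by 13 bp upstream in a side cluster. Nsd2, an H3K36 methyltransferase gene, moved by 17 bp downstream from its annotated start at 33820744 on chromosome 5. Nsd1, of the same enzyme family, moved by 21 bp upstream within coding sequence.

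Genes of RNA processing and translation had members at 8.33% to 13.2% of their promoter clusters, to be read against 7.61% of all promoter clusters. Over all categories the shares lay nearer to the 8.46% of all clusters with identical bounds. They were 8.87% for hnRNPs, 8.65% for spliceosome and SR proteins and 7.24% for translation factors. Genes of hnRNPs had 15 among 114 promoter clusters (13.2%), with 11 in A1 alone and 11 in C7 alone. Hnrnpa2b1 moved by 34 bp upstream in a side cluster, Hnrnpa3 by 17 bp upstream onto an annotated start in its widest cluster and Pcbp2 by 21 bp downstream. Spliceosome and SR protein genes had 10 among 99 (10.1%), of which 7 moved upstream, with Prpf19, Sf3a2 and Snrpe at 15 bp each and Tra2b at 12 bp. Translation factors had 9 among 108 (8.33%), with 20 in A1 alone and 6 in C7 alone. Besides Eif2s2, Eif3d moved by 27 bp and Eef1a1 by 26 bp downstream and Eif5a by 22 bp upstream.

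In 4 further lists the share lay between 3.57% and 6.38%, beside 7.61% of all promoter clusters. Over all categories the share was 6.54% for pluripotency factors, 5.77% for Polycomb, 9.55% for heat shock chaperones and 7.87% for DNA replication. Of all clusters with identical bounds 8.46% were members. Pluripotency factors had 3 among 63 promoter clusters (4.76%), with 5 in A1 alone and 8 in C7 alone. Klf2 moved by 8 bp downstream at a promoter, whereas Pou5f1 moved by 10 bp upstream and Tdgf1 by 11 bp downstream in coding sequence. Polycomb genes had 3 among 61 (4.92%), 2 of them at Aebp2, and heat shock chaperones 6 among 94 (6.38%), led by Cct7 with 35 bp downstream in its widest promoter cluster. DNA replication genes had 2 among 56 (3.57%), led by Gmnn with 20 bp upstream, and Mcm5 moved by 24 bp upstream in coding sequence.

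Polymerase II initiation and Mediator genes had 3 among 102 (2.94%, beside 7.61% of all promoter clusters), all upstream, 2 at Polr2i and 1 at Med16. Proteasome subunit genes had 0 among 38 promoter clusters. DNA methylation and TET genes had 2 among 21 (9.52%), at Tdg and Tet1, each with a move of 4 bp. Over all categories, however, they had 4 members among 108 clusters (3.70%, beside 8.46% of all clusters with identical bounds). With so few members a list, these shares have wide counting error and no list was tested.

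The 4 genes whose CAGE profile the study displays (Wtap, Hnrnpk, Nap1l1 and Ptges3) had no member. Wtap had 1 cluster that moved in C7 alone, by 3 bp, Hnrnpk 1 in each clone alone, by 3 bp in A1 and 1 bp in C7, and Nap1l1 2 in A1 alone, by 20 and 7 bp upstream. Ptges3, a cochaperone gene, had 2 clusters that moved in C7 alone. In 1 of them, a promoter cluster of 250 bp, the TSS lay on the annotated start in E14 and A1 and 164 bp downstream in C7.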

How the data were processed

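CAGE-seq libraries of nuclear RNA from E14 (n = 3), DKO A1 (n = 2) and DKO C7 (n = 3) were demultiplexed by the authors, mapped to mm10 with STAR 2.4.2a, kept where uniquely aligned, merged per line, normalized by a power law and clustered with CAGEr; the labels also name SAMtools 1.3 and bedtools 2.17.0. The deposited values are positions: cluster bounds, dominant TSS and the blocks of the interquantile region (quantiles 0.1 to 0.9). Every deposited score is 0, so the tracks give neither the depth of a line nor expression. The deposited dominant TSS is 0-based and was shifted to 1-based coordinates, a choice checked on the bases at promoter TSSs. The shares of the initiator step at promoters are therefore not independent of this choice.

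Clusters identical in bounds and strand were sorted by their 3 dominant TSSs in Python 3.11.15 (SciPy 1.17.1 for intervals, NumPy 2.4.6 for quartiles, Matplotlib 3.10.9 for figures). Categories used GENCODE M21 in the order promoter (a transcript start of its own strand at most 500 bp away), exon, intron, intergenic, whereas the authors used a later release. Internal transcript starts count as promoters. Bases came from RefSeq promoters (GRCm38.p6) and GENCODE M21 exons. Where both covered a TSS, 6221 of 6221 E14 TSSs had the same bases. The genome sequence was not used here. No test was made, because the rule used the contrast itself and the tracks hold no replicates. Wilson intervals are at 95%. The sorting was tested on simulated data, and 2000 of 2000 simulated clusters were put in their set and category.

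The members, gene lists and classes were chosen with earlier results of these data known. Genes named are the 10 longest moves at coding promoters, genes with 3 or more members (each of those with 4 or more), up to 4 members per gene list by distance, the 5 longest exonic or intronic moves, the genes the study displays and the knocked-out genes. Genes whose members all moved 1 way or crossed the first coding base, and further ribosomal protein members such as Rpl35a were added after their values were seen.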

Additional observations from a re-analysis of the deposited data

How the results depend on the processing

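No paired analysis was possible because the tracks merge the replicates of a line, and for the same reason no replicate could be left out. Of 44 alternatives, 26 left the value within its 95% interval or, for a count, within 1.5 times. Requiring moves of at least 5 bp left 1418 clusters moved alike, 2019 in A1 alone and 1607 in C7 alone, with a median distance of 13 bp, 62.7% at annotated promoters, 76.5% with a pyrimidine-purine step in the clones and an E14 interquantile width of 20 bp. Requiring an interquantile width of at least 10 bp in all 3 lines gave 1444, 2045 and 1639 clusters, 12 bp, 67.9%, 72.4% and 24 bp. Both settings remove short moves or narrow clusters by construction, and both kept the members fewer than either control set. The promoter share was 42.1% with a window of 100 bp, 58.9% with 1000 bp and 45.6% with protein-coding transcripts only. CA alone stood at 27.7% of promoter TSSs in the clones. Chromosomes 1 to 19 and X alone (2672 members), one-to-one overlap in place of identical bounds (2746) and a tolerance of 2 bp between the clones combined with a minimum of 3 bp from E14 (1874) left each count within 1.5 times. The upstream share ran from 46.7% to 48.3% and the share nearer to an annotated start from 46.0% to 47.4%. Among moves over 20 bp, a class chosen after seeing the data, 63.8% went downstream in members, and 63.6% on chromosomes 1 to 19 and X. The depth of each line is not in the tracks, so its part in any move was not tested.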
